A study of Mus musculus with 12 samples.

Results

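Serotonin neurons sorted from the rostral hindbrain were compared with serotonin neurons sorted from the caudal hindbrain of mouse embryos at E12.5, in mid-gestation. All embryos carried ePet-EYFP, a yellow fluorescent protein (YFP) reporter transgene that marks serotonin neurons. Neural tubes were cut into a rostral domain, between the mesencephalic and the pontine flexure, and a caudal domain, from the pontine flexure to the spinal cord, and the dissociated cells were sorted by fluorescence. R+ is the YFP-positive population of the rostral domain and C+ that of the caudal domain, with 3 arrays each, so the comparison uses 6 of the study's 12 arrays. The other 6 arrays hold the YFP-negative cells of the same domains, R- and C-, with 3 arrays each, and give the domain difference among cells that the reporter does not mark. Each array was made from 200000 sorted cells with a single round of amplification. The members were the arrays so labelled, and all probe sets with 1 gene symbol that passed a filter on low signal were tested, which gave 12845 genes with 1 probe set each.

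Serotonin neurons arise in the ventral hindbrain in a rostral cluster, whose axons mostly ascend to the forebrain, and a caudal cluster, whose axons mostly descend to the spinal cord. Both are born from ventral progenitors patterned by Sonic hedgehog, and both use the same enzymes and transporters to make, pack and recapture serotonin. Position along the hindbrain is encoded by homeodomain proteins: engrailed proteins at the midbrain and isthmus end, and Hox proteins in overlapping domains farther back. At this stage the cells are migrating and extending their axons, which they guide with adhesion molecules and receptors for secreted cues.

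The 2 domains differed in an RNA quality control, the ratio of signal at the 3' end to signal at the 5' end of beta-actin, which rises when labelled RNA is shorter. The ratio was 2.64, 3.48 and 3.60 in R+ and 4.52, 5.93 and 6.92 in C+, so every C+ array lay above every R+ array. The means were 3.24 ± 0.52 (SD, n = 3) and 5.79 ± 1.20 (SD, n = 3), with p = 0.1 in a two-sided exact permutation test, the smallest p that 3 against 3 arrays allow. Over the 6 rostral and 6 caudal arrays the ratio was 3.38 ± 0.61 and 5.77 ± 1.31 (exact permutation p = 0.00216). The same ratio of Gapdh was 1.38 ± 0.28 in R+ and 3.20 ± 1.52 in C+ (exact permutation p = 0.2). The ratio and the domain move together, so the groups of genes below are also given with the beta-actin ratio as a covariate in the fit. The median signal was 93 to 121 over the 12 arrays, and their number limits the precision. The labels call the arrays biological replicates without saying which embryos or litters each holds.

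Between R+ and C+, 940 genes (7.32% of those tested) were called, meaning a Benjamini-Hochberg adjusted p under 0.05 in limma's moderated test. Of these, 364 (2.83%) were higher in R+ and 576 (4.48%) were lower in R+. The shares called in the gene lists below, in brackets, are read against these values and the 7.32%. The lists were chosen with earlier results of these data known, so a high share is no independent support. A difference of at least 2-fold was reached by 355 called genes (2.76%), 142 of them higher and 213 lower in R+. The 3 arrays of one group lay wholly above the 3 of the other for 3335 genes (26%), called or not. With the replicate number as a block, which pairs arrays of the same number, 2795 genes (21.8%) were called, all 940 among them. With the beta-actin ratio as a covariate, 216 genes (1.68%) were called, 188 of them among the 940, and with ratio and block together 126 (0.981%), 116 of them among the 940. Of the 752 genes that lost the call with the ratio, most had a smaller or reversed difference with it. The other 153 had an equal or larger difference. Over all 940 genes the median SE rose by a factor of 1.41. Leaving out 1 array gave 503 calls without R+ replicate 1, 695 without R+ replicate 2, 391 without R+ replicate 3, 1744 without C+ replicate 1, 385 without C+ replicate 2 and 402 without C+ replicate 3.

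A core of 83 of the 940 genes, 29 higher and 54 lower in R+, was called in all of 9 further fits: the 6 that leave out 1 array, the block, the covariate, and block and covariate together. Among the 29 were Hmx2, Hmx3, En1, En2, Irx3, Gfra1, Nrp2 and Ddc. Among the 54 were 9 Hox genes, Shox2, Nkx6-1, Meis1, Meis2, Tac1, Trh, Npy, Gad1, Irs4, Reln and Dcn. Of the 20 largest differences 16 belonged to this core, as the plot of differences with and without the ratio shows. The other 4 were those of Hoxa5, Calb2, Cited1 and Cdh8.

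**Figure D1:**
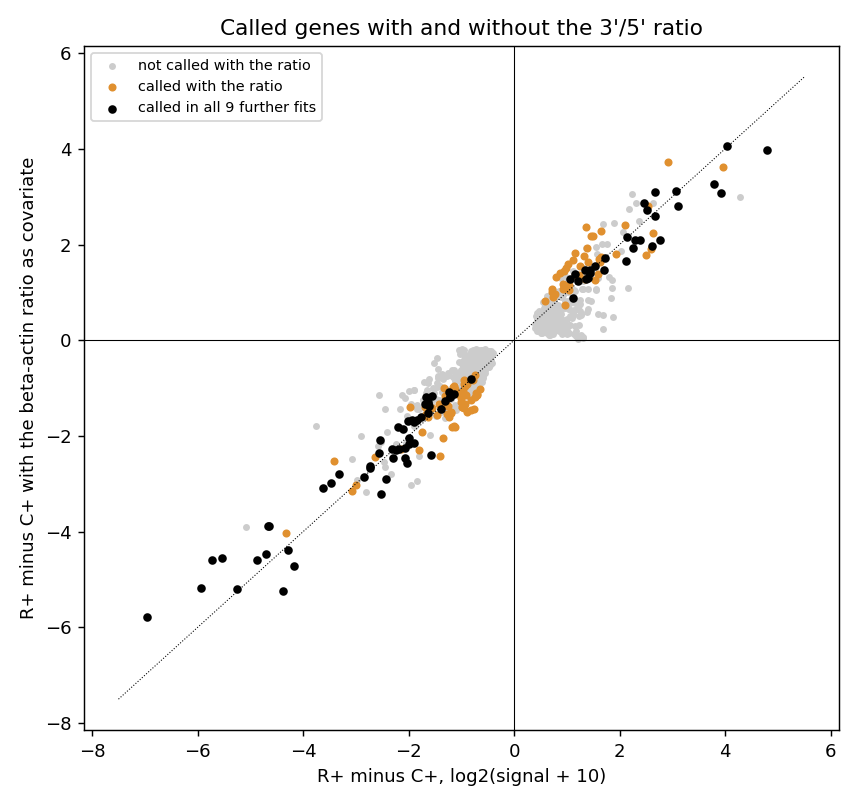
Each point is 1 of the 940 genes called between R+ and C+; the x axis is the difference R+ minus C+ in log2(signal + 10) and the y axis the same difference with the beta-actin 3'/5' ratio as a covariate. Black points are the 83 genes called in all 9 further fits; they include 16 of the 20 genes with the largest differences, and 752 of the 940 genes were not called with the ratio.

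The H6 homeobox genes Hmx2 and Hmx3 and the engrailed genes were high in R+ and near background in C+. Hmx2, a homeodomain transcription factor known for its role in the inner ear and hypothalamus, had a signal of 3999, 2915 and 3200 in R+ and of 194, 58 and 116 in C+. The lowest R+ array was far above the highest C+ array, and the difference was 4.80 ± 0.38 on the log2(signal + 10) scale (SE, adjusted p = 1.29e-06). Hmx3, its neighbour on the same chromosome, gave 1006, 512 and 666 in R+ against 64, 111 and 144 in C+, a difference of 2.67 ± 0.39 (adjusted p = 0.000661). In the YFP-negative cells Hmx3 was at 72 to 96 in R- and 39 to 113 in C-, and Hmx2 was at 32 to 84 in R- and 178 to 318 in C-. Between R- and C-, Hmx3 was not called, and Hmx2 was called lower in the rostral domain (difference -1.96, adjusted p = 0.0093).

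The start-site windows of this pair and of Shox2, the homeobox gene with the smallest p in the opposite direction, are shown because Hmx2 and Hmx3 are neighbours that were both high in R+ and Shox2 had the smallest adjusted p of all genes. The windows run from 250 bases before to 50 after the RefSeq start on build GRCm38.p6, read along the gene's strand, with each CG dinucleotide in capitals. Hmx3 lies at chr7:131542713-131543012 on the plus strand. Hmx2 has 2 start windows on the plus strand, at chr7:131548507-131548806 and chr7:131554043-131554342, the first of them 5794 bases after that of Hmx3. Shox2 lies at chr3:66981722-66982021 on the minus strand.
Hmx3: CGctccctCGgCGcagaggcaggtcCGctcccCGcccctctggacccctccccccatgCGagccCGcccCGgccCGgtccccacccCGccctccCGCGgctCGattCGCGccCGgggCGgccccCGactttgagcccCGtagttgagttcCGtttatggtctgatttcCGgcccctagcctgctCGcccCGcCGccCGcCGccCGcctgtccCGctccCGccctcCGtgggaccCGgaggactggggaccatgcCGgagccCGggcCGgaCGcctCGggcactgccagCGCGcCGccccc
Hmx2 first start: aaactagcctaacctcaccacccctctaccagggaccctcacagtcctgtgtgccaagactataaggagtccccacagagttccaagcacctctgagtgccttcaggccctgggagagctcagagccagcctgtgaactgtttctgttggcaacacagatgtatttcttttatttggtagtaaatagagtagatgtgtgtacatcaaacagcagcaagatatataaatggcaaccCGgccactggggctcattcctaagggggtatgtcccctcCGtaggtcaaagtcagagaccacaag
Hmx2 second start: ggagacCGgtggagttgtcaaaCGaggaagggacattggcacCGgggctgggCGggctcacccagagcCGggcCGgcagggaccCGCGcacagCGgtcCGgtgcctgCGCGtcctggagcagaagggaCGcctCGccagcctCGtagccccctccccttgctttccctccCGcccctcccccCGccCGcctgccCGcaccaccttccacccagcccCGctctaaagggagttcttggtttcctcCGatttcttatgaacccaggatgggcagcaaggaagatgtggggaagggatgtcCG
Shox2: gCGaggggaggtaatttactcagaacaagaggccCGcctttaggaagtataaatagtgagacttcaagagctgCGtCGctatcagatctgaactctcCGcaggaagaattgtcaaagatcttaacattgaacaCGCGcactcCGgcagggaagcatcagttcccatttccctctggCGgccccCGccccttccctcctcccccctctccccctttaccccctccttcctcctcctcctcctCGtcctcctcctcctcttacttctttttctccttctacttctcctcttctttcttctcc
The Hmx3 window holds 39 CG dinucleotides and 78.0% G and C, more CG than 95.6% of the 32851 RefSeq windows, whose median is 7 CG and 52.7% G and C. The first Hmx2 window holds 2 CG, the second Hmx2 window 22 and the Shox2 window 11. The letters TAATTA, a core that many homeodomain proteins bind, occur in 5.29% of all windows and in 0 of these 4. TGATNNAT, searched on both strands as a site shared by Hox and Meis or Pbx proteins, occurs in 8.85% of all windows and in 0 of these 4.

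En1 and En2 encode the engrailed homeodomain proteins of the midbrain and anterior hindbrain. En1 had a signal of 1317, 1544 and 1510 in R+ and of 149, 107 and 54 in C+, a difference of 3.79 ± 0.29 (adjusted p = 1.01e-06). En2 was at 2092, 2312 and 2224 in R+ and at 175, 89 and 124 in C+ (difference 4.04 ± 0.34, adjusted p = 1.97e-06). Cnpy1, an isthmus gene that modulates FGF signalling, followed the same order with 635, 633 and 523 against 81, 65 and 41 (difference 3.10 ± 0.26, adjusted p = 1.96e-06). Non-overlap between R+ and C+ was part of the rule that named these 3 genes, and 26% of all genes showed it. All 3 were also higher in R- than in C-, by 2.10 for En1, 5.70 for En2 and 3.09 for Cnpy1, so the domain difference was present with and without the reporter.

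Of 16 genes tested that are known for midbrain, isthmus or anterior hindbrain identity, 7 were called higher and 2 lower in R+ (56.2%). The median difference of the 16 was 1.17 against -0.049 over all genes. The higher genes included Otx2, a midbrain and forebrain determinant (2.64 ± 0.53, adjusted p = 0.00764), and Fgf18 (1.67 ± 0.38, adjusted p = 0.0172). Otx2 was weak in R+ at 121, 148 and 290 against 26, 13 and 21 in C+, and much higher in R- at 1176 to 1919. Gbx2, which is known as the opponent of Otx2 on the hindbrain side of the isthmus, was lower in R+ at 142, 43 and 99 against 249, 327 and 337 (difference -1.70 ± 0.32, adjusted p = 0.00451). With the beta-actin ratio as a covariate 4 of the 9 calls held. Those of Otx2, Fgf18 and Gbx2 did not, at differences of 2.87, 2.00 and -1.55 (adjusted p 0.0965, 0.109 and 0.135), the first 2 of them larger than without the ratio. Without R+ replicate 3 the list had 5 calls, Otx2 stood at 2.29 (adjusted p = 0.0517) and Fgf18 at 1.59 (adjusted p = 0.0842). Fgf18 also missed the threshold without R+ replicate 1, C+ replicate 2 or C+ replicate 3, with adjusted p from 0.0548 to 0.0749.

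Among 44 other homeobox and patterning factors, 10 were called higher and 6 lower in R+ (36.4%). The Iroquois genes, which pattern the neural tube along both axes, made up 4 of the 10. Irx3 had a signal of 864, 992 and 1230 in R+ and 295, 289 and 317 in C+ (difference 1.73 ± 0.18, adjusted p = 1.92e-05). The other three, Irx1, Irx2 and Irx5, differed by 1.30, 0.83 and 1.40. All 4 Iroquois genes were also called higher in R- than in C-. Pou3f1, a POU-domain factor, was at 4232, 4048 and 3754 in R+ and 1471, 1567 and 1375 in C+ (1.44 ± 0.14, adjusted p = 1.2e-05). Pax7 and Sox14, factors of other neural tube cell types, were at 67 to 198 and 165 to 237 in R+ and at 4 to 23 and 19 to 26 in C+, low beside R-, where Pax7 reached 1454 to 1632. With the ratio as a covariate 10 of the 16 calls held, and those of Irx1 and Irx2 did not, at 1.08 and 0.74 (adjusted p 0.113 and 0.0512).

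The Hox genes went the other way, and none was called higher in R+. Of 20 tested, 13 (65%) were called lower in R+, with a median difference of -2.76 over all 20. Hoxb5 had a signal of 3, 5 and 50 in R+ and of 2079, 2950 and 3580 in C+ (difference -6.95 ± 0.50, adjusted p = 5.69e-07). Hoxb3 was at 75, 232 and 136 in R+ and 7967, 9359 and 9141 in C+ (-5.93 ± 0.35, adjusted p = 9.3e-08). Hoxc4 gave 4, 45 and 63 against 2012, 2123 and 1939 (-5.73 ± 0.56, adjusted p = 1.32e-05). For each of these 3 genes the R+ arrays lay at or below the median signal of all probe sets but for 2 Hoxb3 arrays, and no array of R+ came near any of C+.

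Ordered by paralogue group, which follows position along the hindbrain and spinal cord, the differences were largest in groups 3 to 5 and smaller in groups 1, 2 and 6. R+ was near the floor for several of these genes, such as Hoxb5, Hoxc5 (4, 12 and 16) and Hoxd1. The size of such a difference is bounded by the C+ signal of the probe set, and levels cannot be compared between genes. Hoxa2 and Hoxb2 of group 2, whose domains reach far forward, differed by -1.93 ± 0.16 and -2.19 ± 0.20. Hoxa2 was at 170, 177 and 209 in R+ and 625, 810 and 781 in C+. The group 3 genes Hoxa3, Hoxb3 and Hoxd3 differed by -4.64 to -5.93, the group 4 genes Hoxa4, Hoxb4 and Hoxc4 by -3.42 to -5.73, and the group 5 genes Hoxa5, Hoxb5 and Hoxc5 by -4.67 to -6.95. Hoxb6 had 47, 111 and 108 in R+ and 308, 608 and 659 in C+ (-2.45 ± 0.35, adjusted p = 0.000599). Hoxc6 and the 5 genes tested of groups 9 to 13 were not called. In group 1, Hoxd1 was lower in R+ (-3.07 ± 0.53, adjusted p = 0.00276), at 11, 6 and 29 against 142, 236 and 198, and Hoxb1 was not called (-0.02 ± 0.43). With the ratio as a covariate 10 of the 13 calls held, and those of Hoxa5, Hoxb6 and Hoxd1 did not, at -3.90, -1.43 and -2.49 (adjusted p 0.0732, 0.0938 and 0.175). All 13 were called whichever single array of R+ or C+ was left out.

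**Figure D2:**
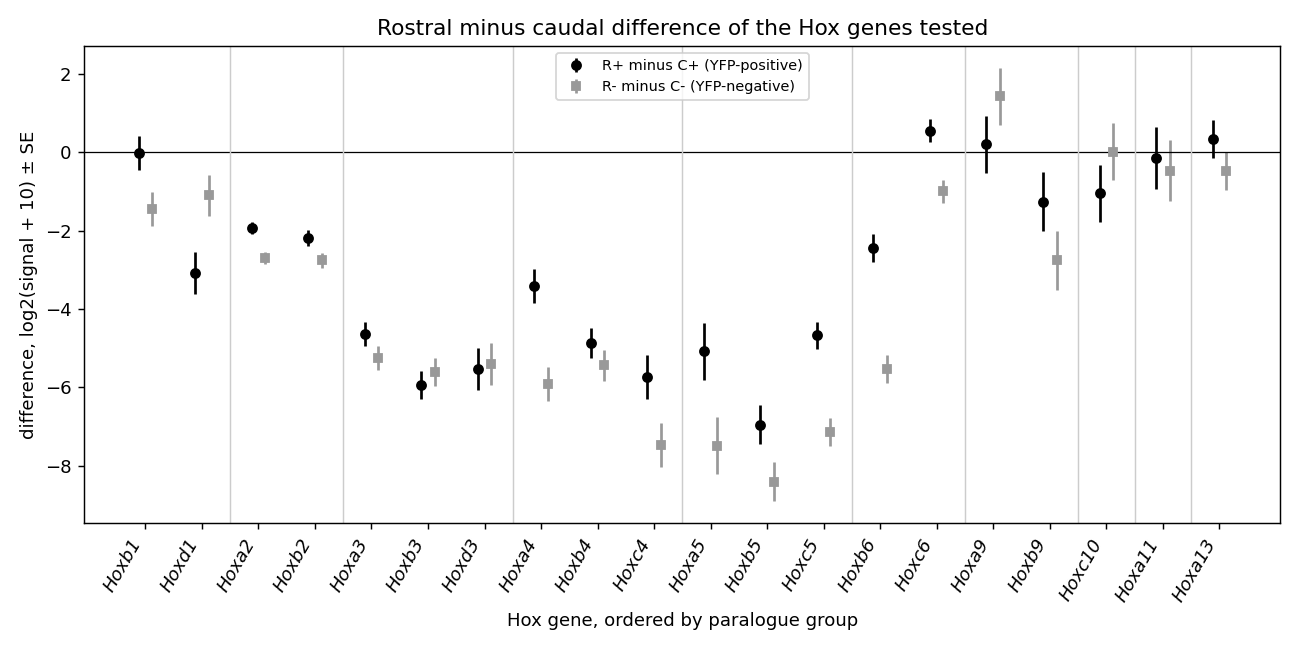
Difference between the rostral and the caudal domain for the 20 Hox genes tested, in log2(signal + 10) with its SE, in YFP-positive cells (circles, 3 against 3 arrays) and YFP-negative cells (squares, 3 against 3 arrays); vertical lines separate paralogue groups. Groups 3 to 5 lie between -3.42 and -6.95 in the YFP-positive cells, and Hoxc5 and Hoxb6 differ less there than in the YFP-negative cells.

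The YFP-negative cells showed the same axis, with 12 Hox genes lower in R- than in C- and none higher, where 1.78% of all genes were called lower. For Hoxb6 and Hoxc5 the domain difference itself was unequal in the reporter populations. Hoxb6 differed by -2.45 in YFP-positive cells and -5.53 in YFP-negative cells, a difference of differences of 3.09 ± 0.50 (adjusted p = 0.00486). Hoxc5 differed by -4.67 and -7.15 (2.47 ± 0.50, adjusted p = 0.0224). Both had lower signals in C+ than in C-, where Hoxb6 was at 3502 to 4010 and Hoxc5 at 5850 to 6267, against 308 to 659 and 354 to 749 in C+. Hoxd1 was the reverse case by its values, at 56 to 102 in C- against 142 to 236 in C+, but its difference of differences was not called (adjusted p = 0.482). Fewer cells with a transcript and less transcript per cell cannot be told apart in these sorted pools.

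Meis1 and Meis2, homeodomain partners of Hox proteins on DNA, were the 2 genes called among 8 Hox cofactors (25%). Both were lower in R+. With the block 3 of the 8 were called in each direction. Meis2 had 2790, 3453 and 3118 in R+ and 13503, 18694 and 14515 in C+ (-2.31 ± 0.17, adjusted p = 5.69e-07). Meis1 had 725, 885 and 712 against 3480, 2949 and 2877 (-1.99 ± 0.14, adjusted p = 4.82e-07). The teashirt zinc-finger genes Tshz1, Tshz2 and Tshz3 were also lower in R+, by 1.19, 0.95 and 1.33. The call of Tshz2 was lost with the ratio as a covariate (-0.75, adjusted p = 0.0965).

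Shox2, a short-stature homeobox gene, had the smallest adjusted p of all genes. Its signal was 342, 523 and 570 in R+ and 19007, 18830 and 16780 in C+, a difference of -5.25 ± 0.17 (adjusted p = 1.53e-10). In the YFP-negative cells it was at 2814 to 2937 in R- and 2945 to 3831 in C- and was not called between them (-0.22, adjusted p = 0.59). R+ was thus below, and C+ above, both YFP-negative populations. Nkx6-1, a homeodomain factor of ventral progenitors and of some of their neurons, was at 236, 237 and 122 in R+ and 7259, 3570 and 2802 in C+ (-4.39 ± 0.37, adjusted p = 2.35e-06). It was the only gene called among 10 ventral progenitor factors tested (10%), where 2 were called with the block or without C+ replicate 1. R- and C- overlapped at 474 to 915 and 749 to 1515. Zfp503, a zinc-finger repressor gene named after its values were seen, was at 907, 1120 and 848 against 6791, 6864 and 5535 (-2.73 ± 0.16, adjusted p = 9.3e-08).

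**Figure D3:**
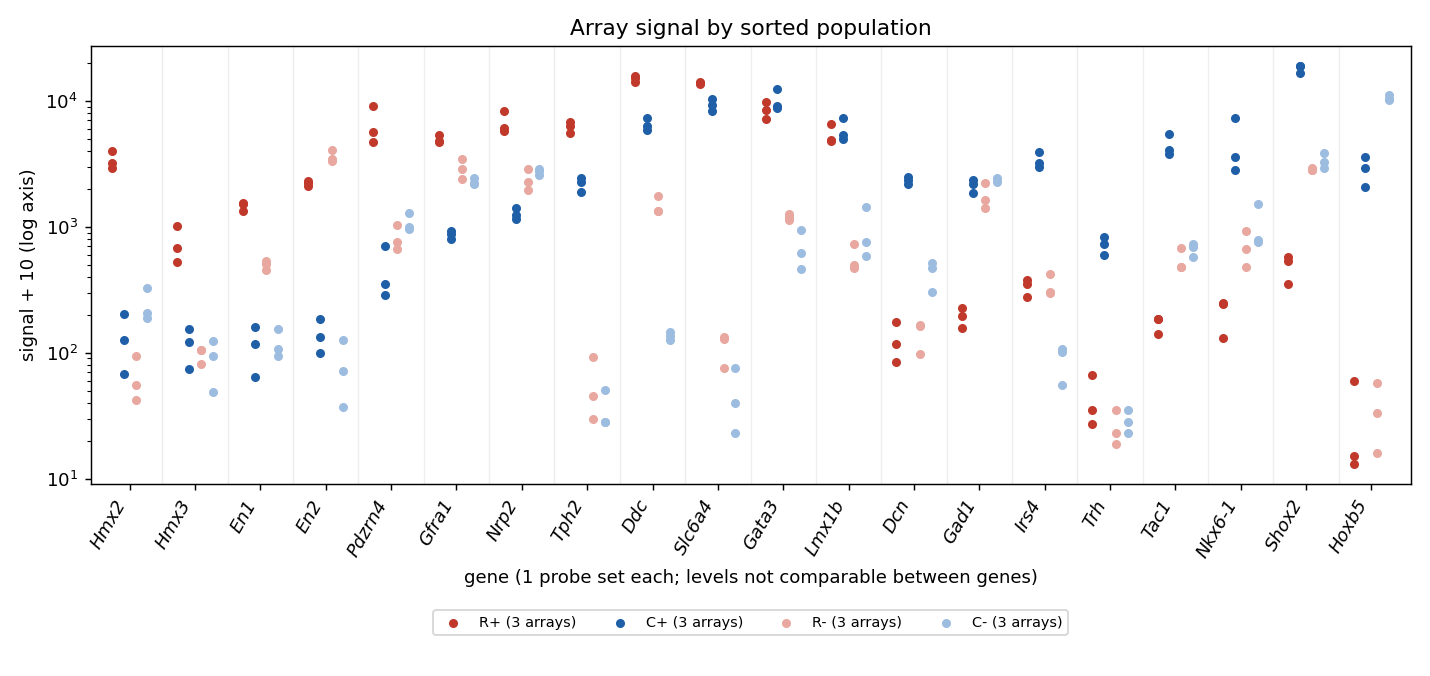
Signal plus 10 on a log axis for 20 genes on each of the 12 arrays, 1 point an array, coloured by population; levels can be compared between arrays but not between genes. Hmx2, Hmx3 and En1 are highest in R+, Shox2, Nkx6-1, Tac1 and Trh in C+, and Slc6a4, Gata3 and Lmx1b are high in both YFP-positive populations.

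The genes that define serotonin neurons were present in both populations, and those called between them were higher in R+. Of 16 genes for serotonin synthesis, transport and breakdown, 3 (18.8%) were called, all higher in R+, and 6 with the replicate block. Tph2, the rate-limiting enzyme of brain serotonin synthesis, had 5578, 6784 and 6270 in R+ and 1869, 2260 and 2449 in C+ (1.50 ± 0.34, adjusted p = 0.0155). Ddc, the decarboxylase that completes the synthesis, had 15667, 15207 and 14259 against 5848, 6286 and 7292 (1.22 ± 0.14, adjusted p = 7.18e-05). Slc18a2, the vesicular monoamine transporter, had 6919, 5810 and 6192 against 2491, 1752 and 2062 (1.59 ± 0.18, adjusted p = 5.76e-05). The 3 genes did not overlap between R+ and C+, as 26% of all genes did not. All 3 calls held with the ratio as a covariate, but with ratio and block together only that of Ddc did (adjusted p 0.292 for Tph2 and 0.132 for Slc18a2). Tph2 missed the threshold without R+ replicate 2, R+ replicate 3 or C+ replicate 2, at differences of 1.44, 1.49 and 1.53 (adjusted p 0.0536, 0.0659 and 0.0568).

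Slc6a4, the serotonin transporter, was at 14198, 14012 and 13608 in R+ and 8341, 9247 and 10435 in C+. Its arrays did not overlap either, but the difference of 0.58 ± 0.32 was not called (adjusted p = 0.299). Gchfr, the regulator of the enzyme that makes the cofactor of Tph2, was at 20108, 19338 and 19154 against 11050, 10658 and 10614 and was not called (0.86 ± 0.34, adjusted p = 0.14). Maoa, which breaks serotonin down, overlapped between the populations at 4090 to 5100 and 4519 to 5336 (-0.05 ± 0.19, adjusted p = 0.913).

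Of 9 transcription factors of the serotonergic programme tested, 1 was called (11.1%). It was St18, a zinc-finger factor that was higher in R+ (0.88 ± 0.23, adjusted p = 0.0358) and lower in R+ than in R-. With the block 2 were called, 1 in each direction. The call of St18 was lost without R+ replicate 2, R+ replicate 3, C+ replicate 1 or C+ replicate 2, with differences of 0.68 to 0.95 (adjusted p 0.0656 to 0.112). Gata3 was at 9768, 8426 and 7192 in R+ and 12454, 9129 and 8832 in C+ (-0.25 ± 0.22, adjusted p = 0.526). Lmx1b, a LIM homeodomain factor of serotonin neurons, was at 6592, 4889 and 4758 against 7360, 5354 and 4956 (-0.12 ± 0.28, adjusted p = 0.854). Gata2 was at 6060, 6745 and 5949 against 8003, 8130 and 8257 (-0.38 ± 0.15, adjusted p = 0.148) and was called with the replicate block (adjusted p = 0.0218). Serotonin receptors gave 1 call of 8, Htr2c, at 30, 95 and 73 in R+ and 284, 421 and 520 in C+ (-2.53 ± 0.39, adjusted p = 0.00114), which was lost with the ratio (-2.12, adjusted p = 0.0947). The autoreceptor gene Htr1a, at 512, 486 and 525 against 831, 799 and 920, was called with the block and not without it (-0.73 ± 0.24, adjusted p = 0.0785 without and 0.0308 with it).

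Among peptide precursors the larger differences were toward C+. Of 36 tested, 4 were called lower and 2 higher in R+ (16.7%), and the 4 were Tac1, Trh, Npy and Penk. The block gave 5 calls in each direction. Tac1, which encodes substance P and neurokinin A, was at 130, 174 and 174 in R+ and 3763, 5461 and 4036 in C+ (-4.70 ± 0.20, adjusted p = 3.45e-09). Trh, the precursor of thyrotropin-releasing hormone, was at 57, 17 and 25 in R+ and 824, 592 and 719 in C+ (-4.17 ± 0.53, adjusted p = 0.000181). Trh was at 9 to 25 in all 6 YFP-negative arrays, so among the 4 populations C+ alone lay clearly above background. Npy, the precursor of neuropeptide Y, was at 189, 168 and 206 against 786, 850 and 828 (-2.08 ± 0.16, adjusted p = 1.29e-06), and Penk, the enkephalin precursor, at 2590, 2228 and 2747 against 5727, 5478 and 6687 (-1.24 ± 0.21, adjusted p = 0.00263). Npy was far higher in C-, at 6532 to 10175, than in C+. The calls of these 4 genes held with the ratio as a covariate. Pcsk5, a convertase that cleaves precursor proteins, went the other way at 3089, 2485 and 1815 in R+ and 492, 316 and 372 in C+ (2.61 ± 0.30, adjusted p = 6.41e-05).

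The inhibitory neuron genes that were called were mostly lower in R+. Of 14 GABA and glycine neuron genes tested, 3 were called lower and 1 higher (28.6%). Gad1, an enzyme that makes GABA, had 147, 187 and 218 in R+ and 1836, 2182 and 2357 in C+ (-3.47 ± 0.19, adjusted p = 6.72e-08). C+ was close to the YFP-negative populations, where Gad1 was at 1398 to 2210 in R- and 2270 to 2441 in C-. A second Gad1 probe set differed by -0.74 ± 0.52 and was not called (adjusted p = 0.472). Gad2, the other GABA enzyme, was at 164, 251 and 224 against 187, 357 and 263 and was not called (-0.30 ± 0.22, adjusted p = 0.46). Slc32a1, which loads GABA and glycine into vesicles, was at 315, 226 and 371 against 777, 567 and 515 (-1.01 ± 0.22, adjusted p = 0.0121), and Slc6a5, the glycine transporter, at 33, 50 and 17 against 98, 191 and 206 (-2.02 ± 0.33, adjusted p = 0.00164). Tal1, a factor that selects the GABA fate, was higher in R+ (0.93 ± 0.19, adjusted p = 0.00902). With the ratio as a covariate only the call of Gad1 held. Tal1 stood at 0.94 there, and it missed the threshold without R+ replicate 3 (0.73, adjusted p = 0.0522). The summed signal of the 14 genes was 2678 to 3867 in R+, 4862 to 5725 in C+, 21695 to 24962 in R- and 21376 to 27016 in C-, and what part carried-over cells have in the differences was not tested.

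Growth-factor signalling divided by gene. Irs4, an adaptor of the insulin and IGF receptors, was at 269, 368 and 340 in R+ and 2976, 3183 and 3889 in C+ (-3.33 ± 0.25, adjusted p = 8.94e-07). Igfbp4, which binds IGFs outside the cell, was at 1959, 2562 and 2558 against 6919, 7800 and 7589 (-1.66 ± 0.17, adjusted p = 1.96e-05). These were the 2 genes called of 14 (14.3%) in insulin and IGF signalling, both also with the ratio. The block gave 1 higher and 4 lower. Irs4 ran opposite in the YFP-negative cells, at 289 to 410 in R- and 45 to 97 in C- (2.00, adjusted p = 0.000255). Dlk1, a Notch-ligand-like membrane protein also named after its values were seen, was at 3865, 2511 and 3173 in R+ and 24779, 16639 and 14183 in C+ (-2.52 ± 0.28, adjusted p = 5.15e-05).

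Of 15 genes for GDNF and neurotrophin ligands and receptors, 2 were called higher and 3 lower in R+ (33.3%). The GDNF co-receptor and its signalling partner differed in opposite directions. Gfra1, which binds GDNF, had 4835, 5310 and 4690 in R+ and 785, 873 and 916 in C+ (2.51 ± 0.14, adjusted p = 9.3e-08). Ret, the kinase that Gfra1 presents GDNF to, had 103, 171 and 204 against 519, 513 and 670 (-1.81 ± 0.26, adjusted p = 0.000543). Ntrk2, the receptor of BDNF, had 457, 725 and 720 against 1265, 1351 and 1413 (-1.10 ± 0.18, adjusted p = 0.00205). The sorting receptors Sorcs1 and Sorcs3 differed by 1.39 and -0.96. With the ratio as a covariate the calls of Gfra1 and Sorcs1 held and those of Ret, Ntrk2 and Sorcs3 did not, at -1.43, -0.70 and -0.87 (adjusted p 0.0732, 0.189 and 0.0947).

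Cell-surface genes of axon growth and adhesion were called in both directions. Nrp2, a receptor of class 3 semaphorins, was at 8284, 6066 and 5799 in R+ and 1408, 1242 and 1150 in C+ (2.38 ± 0.17, adjusted p = 4.49e-07). Of 30 semaphorins, plexins and neuropilins, 4 others were called, all lower in R+ (16.7% with Nrp2). Nrp2 and 2 further probe sets of it gave differences of 2.21 to 2.63, all called. Only the call of Nrp2 held in that list with the ratio as a covariate, and 1 call was left without R+ replicate 2, R+ replicate 3, C+ replicate 2 or C+ replicate 3 and 2 without R+ replicate 1.

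Of 18 Eph receptors and ephrins, 4 were called higher and 1 lower in R+ (27.8%), and 6 and 2 with the block. Epha3, a receptor of class A ephrins, was at 381, 332 and 400 in R+ and 1140, 1528 and 1583 in C+ (-1.89 ± 0.16, adjusted p = 1.83e-06). Ephb1, a receptor of class B ephrins, was at 3935, 3436 and 2993 in R+ and 1621, 1439 and 1711 in C+ (1.11 ± 0.15, adjusted p = 0.000246). Epha3 and Ephb1 were the 2 calls that held with the ratio as a covariate, and the list had 2 calls without R+ replicate 2 and 3 without R+ replicate 1, R+ replicate 3, C+ replicate 2 or C+ replicate 3. Of 33 genes of Slit, Robo, netrin and other guidance, 5 were called in each direction (30.3%). The block gave 7 higher and 9 lower. Among the 5 and 5 were Robo1, a Slit receptor, higher in R+ (0.94 ± 0.23, adjusted p = 0.0237), Flrt3, a guidance and adhesion protein, higher in R+ (1.84 ± 0.34, adjusted p = 0.00449), and Nell2, a Robo ligand, lower in R+ (-1.27 ± 0.18, adjusted p = 0.000486). Ntn1, which encodes netrin, was at 2970, 3452 and 2910 against 4093, 5678 and 5470 (-0.70 ± 0.14, adjusted p = 0.00723). The ratio left 4 of these 10 calls, and ended those of Flrt3 and Ntn1, at 0.89 and -0.51 (adjusted p 0.333 and 0.254). Leaving out R+ replicate 2, R+ replicate 3 or C+ replicate 2 left the list with 6, 5 and 4 calls; Robo1 then stood at 0.77, 0.95 and 0.94 (adjusted p 0.0795, 0.0791 and 0.0777), and Ntn1 without C+ replicate 2 at -0.61 (adjusted p = 0.0524).

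Of 30 cadherins and protocadherins, which bind cells of like type to each other, 5 were called higher and 4 lower in R+ (30%). Cdh8 was at 1012, 832 and 942 in R+ and 85, 11 and 98 in C+ (3.96 ± 0.47, adjusted p = 0.0001), and its 2 further probe sets differed by 1.41 and 2.69, both called. Cdh13 was at 4521, 4307 and 4426 against 1184, 861 and 773 (2.25 ± 0.15, adjusted p = 3.59e-07), and Pcdh19 at 3409, 3297 and 3086 against 671, 743 and 579 (2.29 ± 0.16, adjusted p = 4.73e-07). Cdh6 marked the other side, at 336, 369 and 405 in R+ and 1278, 1459 and 1490 in C+ (-1.90 ± 0.19, adjusted p = 1.92e-05). Cdh4 and Pcdh8 were also lower in R+, by 1.17 and 1.00 on the log2 scale. With the ratio 5 of the 9 calls held, and that of Pcdh8 did not (-0.62, adjusted p = 0.312).

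Among 39 contactins and other adhesion genes, 6 were called higher and 8 lower in R+ (35.9%), and 9 and 13 with the block. Cntnap5a, a contactin-associated protein, was at 283, 336 and 257 in R+ and 2019, 2216 and 2238 in C+ (-2.85 ± 0.17, adjusted p = 9.3e-08), while R- and C- stayed at 201 to 295. Kirrel3, an immunoglobulin adhesion protein, was at 686, 918 and 734 against 254, 145 and 204 (1.93 ± 0.24, adjusted p = 0.000171). Islr2 was at 68, 142 and 169 against 2538, 1571 and 1272 (-3.75 ± 0.82, adjusted p = 0.0132), and its call was lost with the ratio, where the difference was -1.78 (adjusted p = 0.479), and without R+ replicate 1 (-3.39, adjusted p = 0.0545). Of the 14 calls 3 held with the ratio, and leaving out R+ replicate 1, R+ replicate 2, R+ replicate 3, C+ replicate 2 or C+ replicate 3 left 8, 7, 9, 7 and 8.

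Reln and Dab1 of the reelin pathway were lower in R+. Reln, the secreted signal that positions migrating neurons, was at 2445, 2697 and 2509 in R+ and 11285, 11381 and 12551 in C+ (-2.20 ± 0.18, adjusted p = 1.93e-06). Dab1, which relays the reelin signal inside the cell, was at 338, 381 and 525 against 920, 1115 and 1079 (-1.32 ± 0.21, adjusted p = 0.00116), and Ackr3, a scavenging chemokine receptor, at 261, 178 and 184 against 513, 551 and 716 (-1.48 ± 0.21, adjusted p = 0.000486). These were the 3 calls among 14 migration genes (21.4%). Those of Dab1 and Ackr3 were lost with the ratio as a covariate, at -1.04 and -1.22 (adjusted p 0.1 and 0.0561). The block gave 1 higher and 5 lower, and without C+ replicate 1 the list had 6 calls. Ndnf, a secreted neuron-derived factor, was at 119, 173 and 182 against 1899, 1923 and 2333 (-3.63 ± 0.22, adjusted p = 1.25e-07).

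Receptors for fast transmitters gave 3 higher and 5 lower calls of 45 (17.8%), and 6 and 7 with the block. Grik3, a kainate receptor subunit, was at 328, 625 and 449 in R+ and 2186, 3500 and 2499 in C+ (-2.54 ± 0.25, adjusted p = 1.41e-05). The glycine receptor subunits Glra1 and Glra2 went opposite ways: Glra1 was at 5, 13 and 24 against 155, 205 and 184 (-3.07 ± 0.39, adjusted p = 0.000179), and Glra2 at 484, 434 and 441 against 258, 243 and 230 (0.87 ± 0.16, adjusted p = 0.00488). Gabrb1, a GABA-A receptor subunit, was at 1625, 1357 and 1075 against 429, 395 and 273 (1.86 ± 0.28, adjusted p = 0.000822), and Gria3, an AMPA receptor subunit, at 59, 46 and 16 against 219, 190 and 217 (-2.23 ± 0.37, adjusted p = 0.00187). With the ratio as a covariate 4 of the 8 calls held, and those of Glra2, Gabrb1 and Gria3 did not, at 0.70, 1.26 and -2.17 (adjusted p 0.194, 0.108 and 0.0745). Without R+ replicate 3 the list had 5 calls. Calb2, the calcium buffer calretinin, was at 28, 222 and 39 in R+ and 2340, 1258 and 1138 in C+ (-4.32 ± 0.50, adjusted p = 6.5e-05). Nr3c1, the glucocorticoid receptor, was at 690, 720 and 623 against 1953, 2240 and 2295 (-1.66 ± 0.25, adjusted p = 0.00104), and at 41 to 107 in the YFP-negative arrays; its call was lost with the ratio (-1.16, adjusted p = 0.121). Calb2 belongs to 13 calcium-binding genes, of which 1 was called higher and 2 lower (23.1%). Of these 3 calls 2 held with the ratio, and the block gave 2 higher and 3 lower. Nr3c1 belongs to 18 neuropeptide and hormone receptors, of which 2 were called lower (11.1%). Of the 2 calls 1 held with the ratio, and the block gave 1 higher and 4 lower. Without C+ replicate 1 the list had 4 calls.

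**Figure D4:**
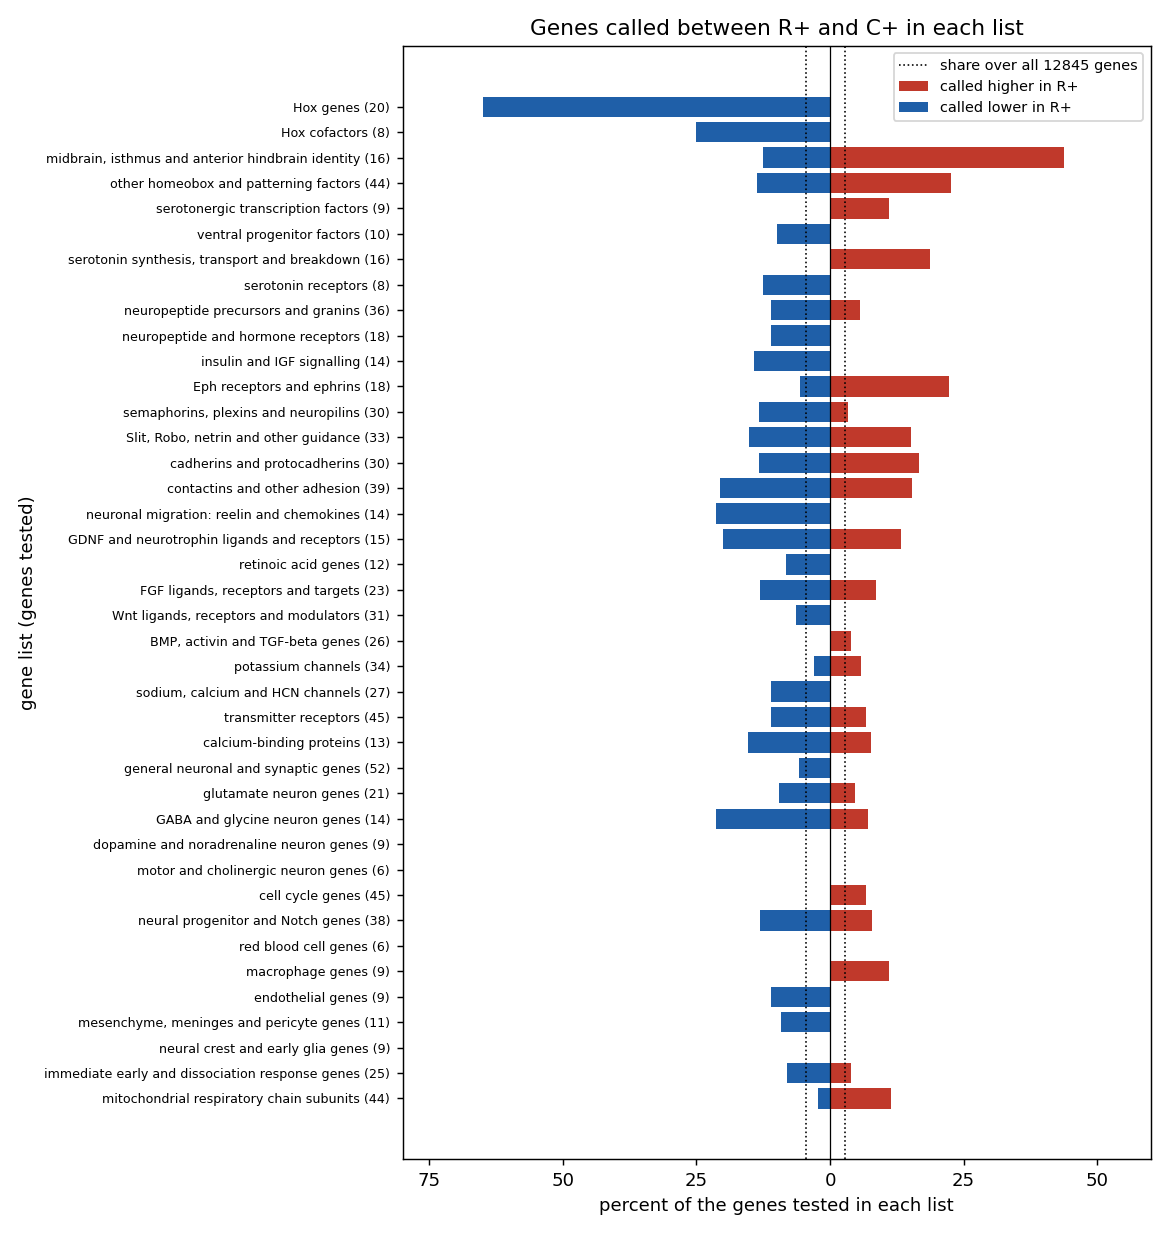
Share of the genes tested in each of 40 lists that were called higher in R+ (red, to the right) or lower in R+ (blue, to the left), with the number tested in brackets; dotted lines mark the shares over all 12845 genes, 2.83% higher and 4.48% lower. The Hox list reaches farthest to the left and the midbrain and isthmus list farthest to the right.

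The shares in the remaining lists are read against the 7.32% called over all genes. Of 23 FGF genes 2 were called higher and 3 lower (21.7%), 1 of them with the ratio, and 2 were called without C+ replicate 2 and 3 without C+ replicate 3. Of 31 Wnt genes 2 were called, both lower (6.45%), none with the ratio. The block gave 2 higher and 5 lower Wnt genes, and the count was 0 without C+ replicate 2, 1 without R+ replicate 2 or C+ replicate 3 and 7 without C+ replicate 1. Of 26 BMP and TGF-beta genes 1 was called, higher (3.85%), none with the ratio, 3 in each direction with the block, and 0 without R+ replicate 1, R+ replicate 3 or C+ replicate 2.

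Of 34 potassium channels 2 were called higher and 1 lower (8.82%), 1 of them with the ratio, 3 in each direction with the block, and 1 without R+ replicate 2, R+ replicate 3 or C+ replicate 2. Kcns2, a modulatory potassium channel subunit, was at 379, 373 and 407 in R+ and 62, 103 and 85 in C+ (2.11 ± 0.37, adjusted p = 0.00288). Of 27 sodium, calcium and HCN channels 3 were called, all lower (11.1%), none with the ratio, 2 higher and 8 lower with the block, and 1 without R+ replicate 3, C+ replicate 2 or C+ replicate 3. Of 52 general neuronal and synaptic genes 3 were called, all lower (5.77%), 1 of them with the ratio. The block gave 11 higher and 8 lower neuronal genes, and the count was 1 without R+ replicate 2, R+ replicate 3, C+ replicate 2 or C+ replicate 3 and 11 without C+ replicate 1. Syt4, a vesicle protein, was at 1038, 714 and 677 against 3405, 2015 and 1985 (-1.58 ± 0.25, adjusted p = 0.00152). Of 25 immediate early genes 1 was called higher and 2 lower (12%), 2 of them with the ratio, 3 and 4 with the block, and 6 without C+ replicate 1.

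Several of the largest differences fell outside those roles. Pdzrn4, a PDZ and RING finger protein, was at 9157, 5640 and 4755 in R+ and 696, 276 and 343 in C+ (3.92 ± 0.31, adjusted p = 1.25e-06). Vstm2a, a secreted immunoglobulin-domain protein, was at 1447, 1514 and 1228 against 142, 187 and 146 (3.07 ± 0.20, adjusted p = 3.22e-07). Hs6st2 and Hs3st4 (the latter named after its values were seen), enzymes that sulfate heparan chains, were both higher in R+, by 2.76 ± 0.25 and 2.12 ± 0.24 (adjusted p 4.5e-06 and 5.76e-05). Cited1, a transcriptional co-regulator, was at 2219, 1069 and 1513 against 227, 31 and 42 (4.27 ± 0.67, adjusted p = 0.00118), and its call was lost with the ratio (2.99, adjusted p = 0.135). On the other side, Diras2, a Ras-like GTPase, was at 1554, 1665 and 1474 in R+ and 8058, 9449 and 10337 in C+ (-2.56 ± 0.15, adjusted p = 9.3e-08), and Mlf1, myeloid leukemia factor, at 496, 498 and 478 against 3212, 3368 and 3371 (-2.73 ± 0.15, adjusted p = 9.3e-08). Nell1 and Trmt9b were lower in R+ by 2.91 and 2.98, and both calls were lost with the ratio, at -2.01 and -2.92 (adjusted p 0.0965 and 0.0842). The pseudogene Tubb2a-ps2 was higher in R+ by 2.16, spread over 1047, 408 and 229 in R+; it can share signal with tubulin genes, and its call was lost with the ratio (1.08, adjusted p = 0.413) and without C+ replicate 2 (1.90, adjusted p = 0.0502).

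Of 45 cell cycle genes 3 were called, all higher in R+, a share of 6.67% that lies near the 7.32% over all genes, and 1 with the ratio. Ccnd2, a G1 cyclin, was at 1779, 3048 and 3794 against 674, 1183 and 1488 (1.36 ± 0.30, adjusted p = 0.014). With the block its adjusted p was 5.8e-06. Without R+ replicate 3 it missed the threshold (1.13, adjusted p = 0.0823), and the list had 1 call without R+ replicate 3 or C+ replicate 2. Of 38 progenitor and Notch genes, 3 were called higher and 5 lower (21.1%). The Notch ligands Dll1 and Dll3 were among the lower ones at differences of -1.03 and -1.18. Without C+ replicate 1 the count was 14. The block gave 8 higher and 7 lower, and 4 calls held with the ratio. That of Dll1 did not (-0.73, adjusted p = 0.082). Crabp1, a retinoic acid-binding protein, was the 1 call of 12 retinoic acid genes (8.33%). It was at 250, 229 and 667 in R+ and 914, 1550 and 1421 in C+ (-1.87 ± 0.31, adjusted p = 0.00205). Its call was lost with the ratio (-1.38, adjusted p = 0.154). Of 44 mitochondrial respiratory chain subunits, 5 were called higher and 1 lower (13.6%), none of them with the ratio as a covariate. The block gave 25 higher and 2 lower. The count was 0 without R+ replicate 1, R+ replicate 3, C+ replicate 2 or C+ replicate 3 and 12 without C+ replicate 1.

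Markers of other cell types were compared because the sort can carry such cells along. Dcn, which encodes the matrix proteoglycan decorin, was at 108, 75 and 166 in R+ and 2494, 2178 and 2364 in C+ (-4.28 ± 0.29, adjusted p = 3.31e-07). Dcn was the 1 gene called of 11 mesenchyme, meninges and pericyte genes (9.09%), also with the ratio, and the block called 3, all lower. The summed signal of the other 10 was 945 to 1435 in R+ and 1600 to 1785 in C+, and the collagen gene Col1a1 was at 8 to 34 and 53 to 77. Dcn was lower in C- (292 to 502) than in C+, while the sum of the other 10 was higher in C- (3940 to 4744) than in C+, and was 1832 to 2595 in R-. What part carried-over cells have in the Dcn difference was not tested. Of 9 macrophage genes 1 was called (11.1%), Csf1r, at 644, 463 and 439 in R+ and 269, 233 and 259 in C+ (0.98 ± 0.21, adjusted p = 0.0126). Its call was lost with the ratio, where the difference was larger (1.03, adjusted p = 0.142). It was also lost without R+ replicate 1 (0.81, adjusted p = 0.0617) or C+ replicate 2 (0.92, adjusted p = 0.0607). The summed signal of the macrophage list was 5567 on R+ replicate 1 and 1763 and 1880 on the other R+ arrays, against 1079 to 1322 in C+, and its part in the results was not tested. The block called 3 macrophage genes, all higher; without R+ replicate 3 there were 2 calls and without C+ replicate 1 there were 3. Of 9 endothelial genes 1 was called, lower (11.1%), none with the ratio, 1 in each direction with the block, 2 without R+ replicate 2 and 0 without any other single array. None of the red blood cell, dopamine and noradrenaline, motor and cholinergic or neural crest genes tested, 6, 9, 6 and 9 in number, was called. With the block 3 red blood cell genes were called higher, and 1 motor and 3 neural crest genes lower. Without R+ replicate 2 or C+ replicate 2, 1 red blood cell gene was called, and without R+ replicate 3 or C+ replicate 1, 1 neural crest gene. Of 21 glutamate neuron genes 1 was called higher and 2 lower (14.3%). Of these 3 calls 1 held with the ratio, and the block gave 5 higher and 3 lower. The summed signal of the 21 genes was 10293 to 10755 in R+ and 10743 to 11450 in C+, against 41063 to 52332 in the YFP-negative populations.

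Whether a domain difference was particular to the YFP-positive cells was tested as the difference of differences, R+ minus C+ less R- minus C-. It was called for 150 genes (1.17%), 63 (0.49%) with the larger rostral value in YFP-positive cells and 87 (0.677%) with the smaller, and for 340 (2.65%) with the block. Between R- and C- themselves 363 genes (2.83%) were called, and 1310 (10.2%) with the block. Of the 940 genes called between R+ and C+, 175 were called with the same sign between R- and C-, 14 with the opposite sign, and 751 were not called there. The difference of differences itself was called for 118 of the 940.

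Hmx2 had the largest positive value among the genes named for this test, 6.76 ± 0.53 (adjusted p = 5.13e-06). Pdzrn4 followed with 4.35 ± 0.43 (adjusted p = 6.51e-05): R- and C- were at 652 to 1023 and 951 to 1288, so R+ lay above and C+ below both. The same order held for Nrp2, with 1956 to 2846 in R- and 2588 to 2875 in C- (2.62 ± 0.23, adjusted p = 2.04e-05), for Gfra1, with 2382 to 3461 and 2197 to 2448 (2.19 ± 0.20, adjusted p = 2.8e-05), and for the unnamed transcript A930009L07Rik (2.86 ± 0.22, adjusted p = 4.93e-06). On the caudal side the values were -5.03 ± 0.24 for Shox2 (adjusted p = 3.81e-08), -4.39 ± 0.28 for Tac1 (adjusted p = 1.13e-06) and -3.85 ± 0.52 for Nkx6-1 (adjusted p = 0.00114). Irs4 reached -5.33 ± 0.35 (adjusted p = 1.28e-06), since its domain difference ran opposite ways in the reporter populations. Gad1, Diras2 and Mlf1 reached -3.00, -3.16 and -2.96. For the engrailed genes the difference of differences was not called, at 1.69 for En1 (adjusted p = 0.0726) and -1.67 for En2 (adjusted p = 0.162), but both were called with the block, in opposite directions (adjusted p 0.0133 and 0.0384). En2 was lower in R+ (2092 to 2312) than in R- (3339 to 4041) by its values. Ddc, called higher in R+ than in C+, had a larger domain difference still in the YFP-negative cells, at 1315 to 1739 in R- and 117 to 135 in C- (difference of differences -2.21, adjusted p = 2.39e-05).

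**Figure D5:**
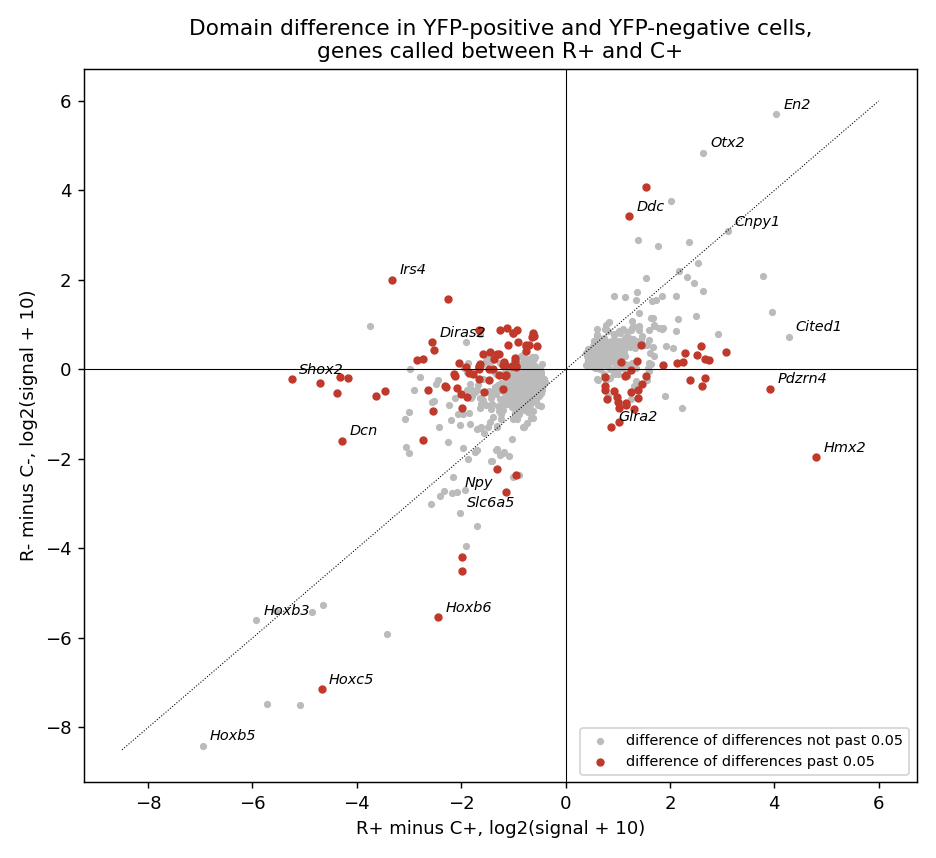
Each point is 1 of the 940 genes called between R+ and C+; the x axis is that difference and the y axis the difference R- minus C-, both in log2(signal + 10), and the dotted line marks equal differences. Red points are the 118 genes whose difference of differences was called; Shox2 and Pdzrn4 lie near 0 on the y axis, Hmx2 and Irs4 have opposite signs on the axes, and Hoxb5, Hoxb3 and En2 lie far out on both.

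The probe set taken for each gene was the one with the highest mean, and 814 further probe sets of the 940 genes passed the filter. Of these, 126 were called in the same direction, 212 had the opposite sign, and none was called in the opposite direction. For the called genes named here, 44 had further probe sets, 69 in all, and 45 of these were called in the same direction. Meis2 had 3 further probe sets at -2.60 to -2.81, Shox2 1 at -4.94 and Hoxb3 1 at -3.41, all called. Further probe sets of Diras2 (-0.44), Hoxc5 (-0.47) and Cdh6 (-0.87) had the same sign but were not called (adjusted p 0.726, 0.78 and 0.119). Ntrk2 had 5 further probe sets, 2 of them called. For 5 of the called genes named here a further probe set had the opposite sign, none of them called: Cdh4 (0.31), Csf1r (-0.02), Dab1 (0.13), Nell2 (0.40) and St18 (-0.58).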

How the data were processed

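RNA of sorted cells was hybridised to Affymetrix Mouse 430 2.0 arrays. The authors deposited 1 linear signal intensity per probe set and array, made with MAS5 per the submitters' processing notes; each array has a 2% trimmed mean of 500. The genome build behind the probe annotation is not given in the sources used here. Of 45101 probe sets, 34945 carry 1 gene symbol; 22030 of them exceeded 107, the median over the whole value table, on 3 or more arrays, and the probe set with the highest mean stood for each of 12845 genes. Signals were tested as log2(signal + 10) with limma 3.58.1 in R 4.3.3: 1 mean per population over all 12 arrays, eBayes with a trend, and Benjamini-Hochberg adjustment over all genes of each contrast. An alternative took MAS5 signals further, by quantile normalization. In all, 14 alternatives were planned and 1, the block with the covariate, was added after seeing the data. With each left-out array or replicate number counted as its own alternative, 22 were run.

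The labels do not say whether arrays of the same replicate number are paired. Deviations from the population means correlated at 0.118 to 0.52 for all 18 pairs of the same number. For the other 36 the range was -0.398 to 0.273, so the ranges overlap. R+ replicate 2 correlated at 0.168 with C+ replicate 2 and at 0.219 with C+ replicate 3. Since the arrays may be paired, the blocked value is given where it moves a count by over 1.5 times. Of the genes named here and not called without the block, 3 were called with it, Gata2 and Htr1a among them. P-values measure the spread between these arrays. The script was checked on simulated data with independent noise between arrays, without any pairing by replicate number or the ratio difference of these arrays. Members and gene lists were chosen with earlier results of these data known. Named genes are drawn from the 20 per direction with the largest called difference, without overlap and with a higher mean over 450. Not all of these are described. Further named genes are members of the lists, 4 markers, and, for the difference of differences, the 5 lowest adjusted p on each side. Promoter sequences are RefSeq's. Some genes are not analysed here.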

Additional observations from a re-analysis of the deposited data

Results flagged for a closer look

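Over all 12845 genes the difference of differences was called for 150 (1.17%). Many genes were named for large differences between the same R+ and C+ arrays or for a low p in this test. Their share of calls is therefore raised by the choice and is no support. In 49 of the 115 genes named above the difference between the rostral and the caudal domain was unlike in YFP-positive and YFP-negative cells, by limma's test of the difference of differences. The value was positive, a larger rostral excess or a smaller rostral deficit among the YFP-positive cells, for Hmx2 (6.76), Pdzrn4 (4.35), Hoxb6 (3.09), Pcsk5 (2.98), A930009L07Rik (2.86), Vstm2a (2.67), Nrp2 (2.62), Hs6st2 (2.54), Hoxc5 (2.47), Hmx3 (2.45), Gfra1 (2.19), Glra2 (2.14), Cdh13 (2.09), Sorcs1 (2.02), Pcdh19 (1.91), Gabrb1 (1.76) and Tshz2 (1.41). It was negative for Dll1 (-1.10), Meis1 (-1.14), Zfp503 (-1.14), Nell2 (-1.14), Gata2 (-1.18), Sorcs3 (-1.21), Ntn1 (-1.25), Cdh4 (-1.27), Epha3 (-1.28), Dll3 (-1.33), Igfbp4 (-1.44), Grik3 (-1.62), Dab1 (-1.67), Nr3c1 (-1.74), Pcdh8 (-1.82), Syt4 (-1.91), Meis2 (-1.93), Cdh6 (-1.95), Ddc (-2.21), Dcn (-2.69), Mlf1 (-2.96), Dlk1 (-2.96), Gad1 (-3.00), Ndnf (-3.04), Cntnap5a (-3.06), Diras2 (-3.16), Nkx6-1 (-3.85), Trh (-3.98), Calb2 (-4.14), Tac1 (-4.39), Shox2 (-5.03) and Irs4 (-5.33). For several of these genes the domain difference had opposite signs in the reporter populations. Among them were Hmx2 (4.80 and -1.96), Irs4 (-3.33 and 2.00), Glra2 (0.87 and -1.27) and Diras2 (-2.56 and 0.6).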

How the results depend on the processing

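Of the 104 genes named above that were called between R+ and C+, 49 were called under all 22 alternatives run. The counts of calls that moved by over 1.5 times were these. With the replicate block there were 2795 calls (1213 higher and 1582 lower in R+), 1310 between R- and C- and 340 in the difference of differences. With the beta-actin ratio as a covariate there were 216 (92 and 124), and 216 between R- and C-. With block and covariate together there were 126 (52 and 74), 113 between R- and C-, and 305 in the difference of differences. The 6 YFP-positive arrays alone gave 605 (226 and 379), scaling to one median 507 (152 and 355), and eBayes without trend 609 (201 higher). The mean of all probe sets of a gene gave 339 lower. Leaving out 1 array or 1 replicate number gave 146 to 1813 calls (51 to 849 higher and 95 to 964 lower), 79 to 439 between R- and C- and 27 to 219 in the difference of differences. Lmx1b ranged from -0.27 to 0.055 over these fits, the positive value without C+ replicate 1, as did Hoxb1 from -0.43 to 0.36 and Maoa from -0.12 to 0.038. The sign also changed with block and covariate for Lmx1b (0.20), Slc6a4 (-0.61), Gata3 (0.22) and Hoxb1 (0.056), with the covariate for Gad2 (0.031), Hoxb1 (0.51) and Maoa (0.27), with the mean of all probe sets for Gad2 (0.34), Hoxc6 (-0.49) and Maoa (0.15), and with an offset of 50 for Hoxb1 (0.015). None of these genes was called in the comparison as reported. The cause of these changes was not tested. The offset, the filters and quantile normalization kept the count within 1.5 times.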
